A study of Homo sapiens with 2 samples.

Results

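The genes described here encode the core of the splicing machinery: 11 SR proteins, 2 TRA2 proteins, 19 heterogeneous nuclear ribonucleoproteins (hnRNPs), 8 subunits of the SF3 complex, both U2AF subunits, 5 proteins of the U1 and U2 small nuclear ribonucleoproteins (snRNPs), 7 Sm ring proteins, and SNRNP200, PRPF8 and PRPF19. They were taken by gene symbol from a list of 57, and all 57 had a row among the 39720 symbols of the table. RNA was measured in A549, a human lung adenocarcinoma cell line, on day 2 after lentiviral delivery of a hairpin RNA that targets DEPDC1B (shDEPDC1B) or of the control hairpin (shNC), with 5 µg/mL polybrene in both. Each group is 1 library of 1 cell line, so no difference has a replicate check, no p-value was computed, and what is compared is a pair of libraries.

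Splicing removes introns from pre-mRNA on the spliceosome, which is built from U1, U2, U4, U5 and U6 snRNPs. Each snRNP except U6 carries a ring of Sm proteins around its RNA, and U6 carries a ring of LSM proteins instead. SR proteins bind exons and favour their inclusion, while hnRNPs coat nascent transcripts and often favour skipping. Many SR and hnRNP genes hold conserved poison exons whose inclusion sends the mRNA to nonsense-mediated decay, and counts per gene add productive and poison forms together, so isoforms are not seen here.

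DEPDC1B itself had 39 counts in shDEPDC1B and 329 in shNC, 7.98-fold lower after scaling. The libraries held 18862371 counts in shDEPDC1B and 18647290 in shNC, and values below are TMM-scaled CPM (counts brought to a common library size), or log2 ratios of shDEPDC1B over shNC with an exact 95% interval in brackets that covers counting error only. All 5 epithelial markers and all 4 oxidative enzymes typical of A549 were present. EPCAM was the lowest of these, at 65 counts in shDEPDC1B and 37 in shNC. Surfactant genes, NKX2-1 and markers of leukocytes and endothelium were below 30 counts in both libraries, and of 4 fibroblast markers COL1A1 alone reached 30 counts. Of 4 neuron-type splicing regulators 2 reached it, NOVA1 with 313 counts in shDEPDC1B and 366 in shNC, and RBFOX3 with 188 in shDEPDC1B and 139 in shNC. The summed fibroblast list was at 6.19 CPM in shDEPDC1B and 5.81 CPM in shNC. The list of surfactant genes and NKX2-1, which marks the alveolar type II cell, was at 0.603 CPM in shDEPDC1B and 0.571 CPM in shNC. This lineage of the lung was thus not visible in either library.

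Promoters of a few members are shown first, and no link between their motifs and the ratios was tested. RefSeq starts were found for 52 of the 57 genes (build GRCh38.p14), and 150 bases were read from 120 bases before to 30 bases after the start. The 6 printed are those of SNRNP70 and SNRPB, whose ratios had the highest lower bounds, of HNRNPH2 and HNRNPUL1, whose ratios had the lowest upper bounds, and of SF3A1 and SF3B2 of the SF3 complex, chosen after their motifs were seen. Capitals mark matches, on either strand, to the 8 words searched: the CCAAT box, the GC box GGGCGG, the ETS core CCGGAAG, the NRF1 word GCATGCGC, the YY1 word AAGATGGC, the CREB word TGACGTCA, the E-box CACGTG and the TATA box TATAAA. SNRNP70 holds no match.
HNRNPH2, chrX:101408102-101408251, plus strand: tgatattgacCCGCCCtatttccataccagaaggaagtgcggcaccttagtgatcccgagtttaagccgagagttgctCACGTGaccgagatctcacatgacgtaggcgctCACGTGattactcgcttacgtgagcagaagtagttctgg
HNRNPUL1, chr19:41262437-41262586, plus strand: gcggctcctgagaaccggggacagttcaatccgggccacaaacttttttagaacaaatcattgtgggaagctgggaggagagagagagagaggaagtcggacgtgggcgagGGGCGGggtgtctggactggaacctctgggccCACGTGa
SNRNP70, chr19:49085331-49085480, plus strand: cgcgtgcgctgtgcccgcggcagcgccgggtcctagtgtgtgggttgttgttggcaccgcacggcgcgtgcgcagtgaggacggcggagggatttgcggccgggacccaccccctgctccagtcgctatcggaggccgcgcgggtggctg
SNRPB, chr20:2470760-2470909, minus strand: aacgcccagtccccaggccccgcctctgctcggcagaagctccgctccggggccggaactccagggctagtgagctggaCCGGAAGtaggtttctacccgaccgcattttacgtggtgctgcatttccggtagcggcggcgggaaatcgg
SF3A1, chr22:30356865-30357014, minus strand: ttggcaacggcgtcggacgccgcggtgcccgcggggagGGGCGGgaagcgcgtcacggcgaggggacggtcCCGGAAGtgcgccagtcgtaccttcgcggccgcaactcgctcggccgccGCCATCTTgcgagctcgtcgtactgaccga
SF3B2, chr11:66052244-66052393, plus strand: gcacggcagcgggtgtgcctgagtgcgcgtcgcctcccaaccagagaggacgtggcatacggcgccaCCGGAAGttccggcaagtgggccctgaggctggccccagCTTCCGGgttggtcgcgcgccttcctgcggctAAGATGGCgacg

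The ETS core was in 5 of 7 SF3 promoters, 5 of 11 snRNP and Sm promoters and 2 of 29 promoters of SR, TRA2 and hnRNP genes, against 8.07% of all 27305 windows of that length. It stands in SNRPB, SF3A1 and SF3B2 above. The E-box was in 6 of 18 hnRNP promoters, among them HNRNPH2 with 2 matches and HNRNPUL1, against 4.63% of all windows. It was in 0 of 10 SR and 0 of 11 snRNP and Sm promoters. The YY1 word was in 3 of 7 SF3 promoters and 3 of 52 member promoters in all, against 1.84% of all windows. The GC box was in 12 of 18 hnRNP and 3 of 11 snRNP and Sm promoters, against 36.0%, and the CCAAT box in 8 of 18 and 4 of 11, against 23.2%. The NRF1 word was in 2 of 52 member promoters, against 2.44% of all windows, the TATA box in 2 of 52, against 6.58%, and the CREB word in 0 of 52, against 1.60%. No searched word contains another. These are matches of letters in a window and no measure of binding.

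The list as a whole had a median near that of all genes, while the medians of its classes lay on both sides of it. All 57 genes were assessed, which asked for 30 counts in one library or the other, as were 13850 genes of the table. At least 1.5-fold higher in shDEPDC1B, with an interval that excludes equality, were 11 members (19.3%) against 19.2% of all assessed genes, and at least 1.5-fold lower were 7 (12.3%) against 19.6%. The share of higher members was thus near that of all genes, and the median log2 ratio was 0.05 for members and 0.04 for all assessed genes. None was 2-fold higher and 3 were 2-fold lower (SRSF8, HNRNPH2 and HNRNPUL1), against 5.86% and 8.97% of all genes. At any size, the interval lay above equality for 29 members and below it for 20, against 38.9% and 34.9% of all genes. Whether an interval excludes equality depends on depth, and these shares include genes with as few as 30 counts. They are not matched to the members for depth. The SD of the log2 ratio was 0.574 over members and 0.698 over the 4605 genes that reached 1000 counts. With library totals in place of TMM factors, 14.6% of all genes were higher and 23.2% lower, and of the members 8 higher and 7 lower. The median over all genes was then at -0.06 and that of the members at -0.043, and of the members with an interval above equality HNRNPU was below it at -0.05 and SRSF5 was level with it.

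**Figure D1:**
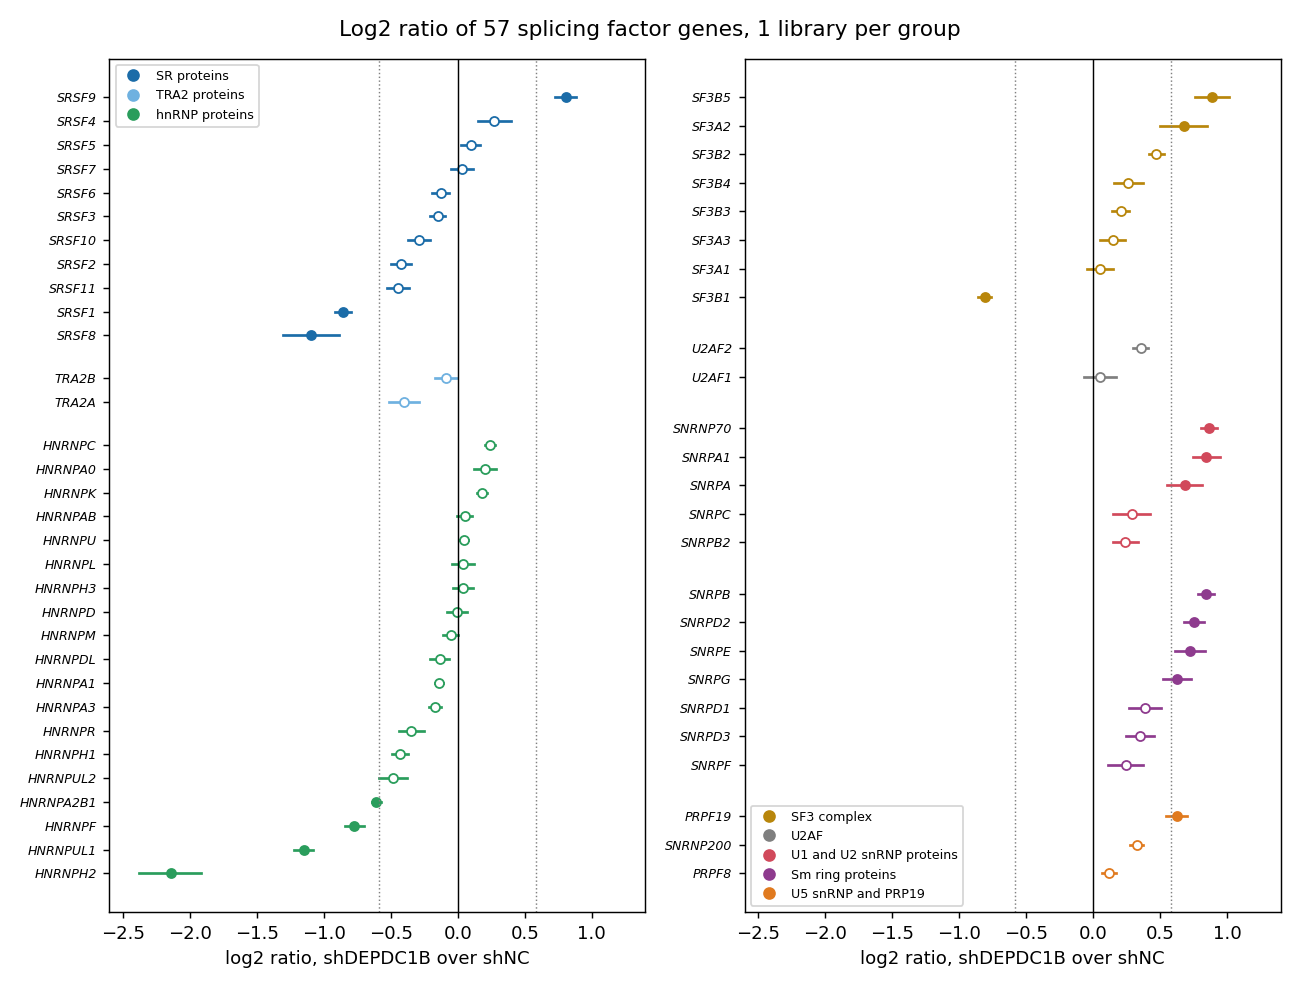
Log2 ratio of shDEPDC1B over shNC for each of the 57 genes, by class; lines are exact 95% intervals of counting error, filled points are at least 1.5-fold away with an interval that excludes equality, and dotted lines mark 1.5-fold. All 12 genes of the U1, U2 and Sm classes lie right of 0, from 0.24 to 0.87, while HNRNPH2 (-2.14) and HNRNPUL1 (-1.15) lie farthest to the left.

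All 7 Sm ring genes were higher in shDEPDC1B, 4 of them at least 1.5-fold, against 19.2% of all genes. After a fit on transcript length and GC content over all genes, described further down, none of these 4 kept 1.5-fold: SNRPB was at 0.23, SNRPD2 at 0.10, SNRPE at 0.40 and SNRPG at 0.35, and the class median was 0.23, against 0.63 before it. The class took 961 CPM in shDEPDC1B and 607 CPM in shNC in sum, a log2 ratio of 0.66 [0.63, 0.70]. SNRPB (chromosome 20, 2461634 to 2470853, minus strand, in GENCODE 29 on GRCh38, as are all gene coordinates here), which encodes SmB and SmB', had 354 CPM in shDEPDC1B and 198 CPM in shNC, a log2 ratio of 0.84 [0.78, 0.90]. SNRPD2, whose product joins SmD1, had 200.4 CPM in shDEPDC1B and 119 CPM in shNC, a log2 ratio of 0.76 [0.68, 0.83]. Exons of QPCTL, with 563 counts in shDEPDC1B and 296 in shNC, overlap SNRPD2 on the opposite strand. SNRPE had 91.4 CPM in shDEPDC1B and 55.4 CPM in shNC, a log2 ratio of 0.72 [0.61, 0.83], and SNRPG 99.3 CPM in shDEPDC1B and 64.2 CPM in shNC, a log2 ratio of 0.63 [0.52, 0.73]. The intervals of these 4 lay well above equality. SNRPD1, SNRPD3 and SNRPF were higher by less than 1.5-fold. Their log2 ratios were 0.39 [0.27, 0.51] for SNRPD1, 0.35 [0.25, 0.46] for SNRPD3 and 0.24 [0.11, 0.37] for SNRPF. SmB enters the ring as a pair with SmD3, and the intervals of their genes SNRPB and SNRPD3 did not overlap. However, exons of GGT1 overlap SNRPD3 on the same strand, and GGT1 had 3475 counts in shDEPDC1B and 2413 in shNC. SNRPD3 itself had 1657 counts in shDEPDC1B and 1371 in shNC. Exons of GUCD1, with 975 counts in shDEPDC1B and 966 in shNC, overlap SNRPD3 on the opposite strand. The part of both neighbours in the SNRPD3 ratio was not tested. SNRPN, an SNRPB paralog outside the list whose protein resembles SmB closely, had 78.4 CPM in shDEPDC1B and 48.9 CPM in shNC, a log2 ratio of 0.68 [0.56, 0.80], and reads shared between both genes are divided by a model.

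All 5 genes of the U1 and U2 snRNP proteins were higher as well, 3 at least 1.5-fold, with 691 CPM in shDEPDC1B and 431 CPM in shNC in sum and a log2 ratio of 0.68 [0.64, 0.72]. SNRNP70 (chromosome 19, 49085419 to 49108605, plus strand), the U1-70K protein that contacts SR proteins at the 5' splice site, had 339.5 CPM in shDEPDC1B and 186 CPM in shNC, a log2 ratio of 0.87 [0.81, 0.93]. SNRPA1, protein A' of the U2 snRNP, had 122 CPM in shDEPDC1B and 67.8 CPM in shNC, a log2 ratio of 0.85 [0.75, 0.95]. SNRPA, protein A of the U1 snRNP, which binds a stem-loop of U1 RNA, had 67.8 CPM in shDEPDC1B and 42.2 CPM in shNC, a log2 ratio of 0.68 [0.55, 0.81]. Exons of C19orf54, with 282 counts in shDEPDC1B and 427 in shNC, overlap SNRPA on the opposite strand. SNRPC, which helps U1 hold the 5' splice site, was at 0.29 [0.15, 0.43], and SNRPB2, protein B'' of the U2 snRNP and a close relative of SNRPA, at 0.24 [0.15, 0.33]. The log2 ratio of SNRPA exceeded that of SNRPB2 by 0.44 [0.28, 0.60]. Together with the Sm ring, 7 of these 12 genes were at least 1.5-fold higher against 19.2% of all genes, none was lower, and the median was 0.66. After the fit on length and GC none of these 7 kept 1.5-fold, SNRPD1 alone of the 12 was past it, and the median was 0.25. All genes with transcripts under 1500 nucleotides had a median of 0.55 before the fit.

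Within the SF3 complex SF3B1 was lower, while of the other 7 genes the interval lay above equality for 6 and held it for SF3A1. At least 1.5-fold higher were 2 of 8 (SF3B5 and SF3A2) and lower 1 (SF3B1), against 19.2% and 19.6% of all genes. These counts are not read as a trait of the complex. The 3 calls did not hold after the fit on length and GC, where SF3B1 was at -0.36, SF3B5 at 0.09 and SF3A2 at 0.11. SF3B3, at 0.68, was then the only one of the 8 past 1.5-fold, against 12.3% of genes with a length. The SF3 complex is the part of the U2 snRNP that binds the branch point. SF3B1 (chromosome 2, 197389784 to 197435091, minus strand), its largest subunit, had 271 CPM in shDEPDC1B and 476 CPM in shNC, a log2 ratio of -0.81 [-0.86, -0.76]. The other SF3B genes lay on the other side. SF3B2 had 335 CPM in shDEPDC1B and 241 CPM in shNC, a log2 ratio of 0.47 [0.42, 0.53], SF3B3 239.8 CPM in shDEPDC1B and 208 CPM in shNC, a log2 ratio of 0.21 [0.15, 0.27], SF3B4 was at 0.26 [0.16, 0.37] and SF3B5, the small subunit, at 0.89 [0.76, 1.02]. The log2 ratio of SF3B1 minus that of SF3B3 was -1.02 [-1.10, -0.94], a difference that does not depend on how the libraries were scaled. Of the SF3A subunits SF3A2 had 36.1 CPM in shDEPDC1B and 22.6 CPM in shNC, a log2 ratio of 0.68 [0.50, 0.85], SF3A3 was at 0.15 [0.05, 0.24], and for SF3A1 the interval held equality, at 0.05 [-0.04, 0.15]. Exons of PLEKHJ1 overlap SF3A2 on the opposite strand, and PLEKHJ1 had 678 counts in shDEPDC1B and 390 in shNC, where SF3A2 had 658 in shDEPDC1B and 435 in shNC. Its part in the SF3A2 ratio was not tested. In sum the complex was level, with 1239 CPM in shDEPDC1B and 1241 CPM in shNC, with SF3B1 on one side and most other subunits on the other.

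U2AF2, which reads the polypyrimidine tract before the 3' splice site, had 318 CPM in shDEPDC1B and 249 CPM in shNC, a log2 ratio of 0.36 [0.30, 0.41]. U2AF1, which reads the AG at the site, had 61.1 CPM in shDEPDC1B and 59.0 CPM in shNC, a log2 ratio of 0.05 [-0.07, 0.17], with no difference detectable at this depth. A near-identical copy, U2AF1L5, had 19 counts in shDEPDC1B and 44 in shNC, and with it added the ratio was 0.02 [-0.10, 0.14]. SNRNP200, the helicase that unwinds U4 from U6, had 459 CPM in shDEPDC1B and 366 CPM in shNC, a log2 ratio of 0.33 [0.28, 0.37]. PRPF8, the scaffold of the catalytic core, had 311 CPM in shDEPDC1B and 286 CPM in shNC, a log2 ratio of 0.12 [0.07, 0.17], though its deposited value is not a whole hundredth, so that its counting error is uncertain. PRPF19, a ubiquitin ligase that joins at activation, had 174 CPM in shDEPDC1B and 113 CPM in shNC, a log2 ratio of 0.63 [0.55, 0.70]. It was the one of these genes at least 1.5-fold higher, as were 19.2% of all genes. After the fit on length and GC PRPF19 was at 0.30 and SNRNP200, at 0.59, was the one past 1.5-fold, as were 12.3% of genes with a length. U2AF2 was then at 0.08, U2AF1 at -0.17 and PRPF8 at 0.39.

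**Figure D2:**
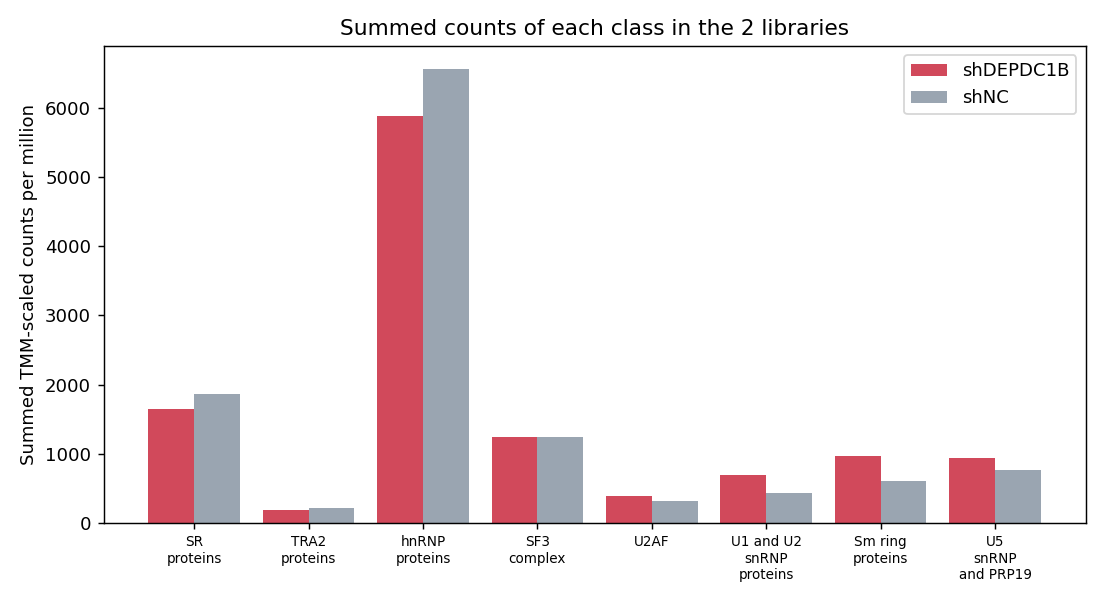
Summed TMM-scaled CPM of each class, shDEPDC1B left of shNC. The hnRNP genes held 5882 CPM in shDEPDC1B and 6573 CPM in shNC, while the Sm ring class stood at 961 CPM in shDEPDC1B and 607 CPM in shNC.

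SR protein genes ranged from SRSF9 above to SRSF8 below, with a sum of 1643 CPM in shDEPDC1B and 1863 CPM in shNC. Their median log2 ratio was -0.15. It was 0.03 after the fit on length and GC described below, but -0.16 after a loess (a smooth curve) on length alone. At least 1.5-fold higher was 1 of 11, against 19.2% of all genes. Lower were 2 of 11 (SRSF1 and SRSF8), a share near the 19.6% of all genes. The higher one, SRSF9 (chromosome 12, 120461668 to 120469793, minus strand), had 203 CPM in shDEPDC1B and 116 CPM in shNC, a log2 ratio of 0.80 [0.73, 0.88]. Exons of GATC overlap it on the opposite strand, and GATC had 61.1 CPM in shDEPDC1B and 39.6 CPM in shNC, a log2 ratio of 0.63 [0.49, 0.76]. No source used here says whether the library kept strand, so reads of the overlap cannot be told apart. SRSF1 (chromosome 17, 58003360 to 58007346, minus strand), a founding SR protein and a proto-oncogene in several cancers, had 188 CPM in shDEPDC1B and 340.2 CPM in shNC, a log2 ratio of -0.86 [-0.92, -0.80]. SRSF8, a close relative of SRSF2, had 273 counts in shDEPDC1B and 617 in shNC, a log2 ratio of -1.10 [-1.31, -0.89]. SRSF1 and SRSF9 share their domain layout, and the share of SRSF1 in the counts of the pair was 48.1% in shDEPDC1B and 74.6% in shNC. Their log2 ratios differed by -1.66 [-1.76, -1.57] (SRSF1 minus SRSF9).

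The other SR genes stayed within 1.5-fold. SRSF2, which binds C-rich and G-rich exon words alike, had 131 CPM in shDEPDC1B and 175 CPM in shNC, a log2 ratio of -0.42 [-0.50, -0.34]. SRSF11 was at -0.45 [-0.52, -0.37] and SRSF10, a splicing repressor when dephosphorylated, at -0.29 [-0.37, -0.21]. SRSF3, the smallest SR protein, had 282 CPM in shDEPDC1B and 313 CPM in shNC, a log2 ratio of -0.15 [-0.20, -0.10], and SRSF6 was at -0.13 [-0.19, -0.06]. Above equality were SRSF4 at 0.27 [0.15, 0.40] and SRSF5 at 0.10 [0.03, 0.16], and the interval of SRSF7, at 0.03 [-0.05, 0.11], held equality. The TRA2 genes, which promote exons with GAA repeats, were both lower, TRA2A at -0.40 [-0.51, -0.29] and TRA2B at -0.09 [-0.17, -0.0033], and their log2 ratios differed by -0.32 [-0.45, -0.18] (TRA2A minus TRA2B).

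Of 19 hnRNP genes none was at least 1.5-fold higher and 4 were at least 1.5-fold lower, a share near the 19.6% of all genes. Their median was -0.14. It was 0.05 after the same fit on length and GC, but -0.16 after the loess on length alone. In sum they had 5882 CPM in shDEPDC1B and 6573 CPM in shNC, a log2 ratio of -0.16 [-0.17, -0.15]. HNRNPUL1 (chromosome 19, 41262496 to 41307598, plus strand), a relative of hnRNP U with a part in DNA repair, had 132 CPM in shDEPDC1B and 293 CPM in shNC, a log2 ratio of -1.15 [-1.22, -1.08]. HNRNPF, which binds G-runs, had 138 CPM in shDEPDC1B and 236 CPM in shNC, a log2 ratio of -0.77 [-0.84, -0.70]. HNRNPA2B1, an abundant hnRNP that also reads RNA modifications, had 594 CPM in shDEPDC1B and 904 CPM in shNC, a log2 ratio of -0.61 [-0.64, -0.57], a fold of 1.52 and so just past the 1.5-fold line. On the opposite strand, exons of CBX3 overlap HNRNPA2B1 and exons of TGFB1 overlap HNRNPUL1. Both neighbours had more counts in shDEPDC1B, CBX3 with 6225 in shDEPDC1B and 5408 in shNC, and TGFB1 with 2579 in shDEPDC1B and 1697 in shNC.

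HNRNPH2 (chromosome X, 101408295 to 101414133, plus strand) had the lowest ratio of the 57 genes, with 190 counts in shDEPDC1B and 887 in shNC, a log2 ratio of -2.14 [-2.38, -1.92], but its reads are shared with a read-through gene. RPL36A-HNRNPH2 overlaps HNRNPH2 exons on the same strand and had 2568 counts in shDEPDC1B and 2423 in shNC. With both genes added the ratio was -0.18 [-0.26, -0.11], within 1.5-fold. The read-through gene also holds exons of the ribosomal protein gene RPL36A, which had 378 CPM in shDEPDC1B and 249.7 CPM in shNC, a log2 ratio of 0.60 [0.55, 0.65]. The 2-fold and 1.5-fold calls of HNRNPH2 hold for the gene alone, as the deposited estimate divides the reads. HNRNPUL2 shares reads with HNRNPUL2-BSCL2 in the same way, at -0.49 [-0.59, -0.38] alone and at -0.17 [-0.23, -0.10] with it added.

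The other hnRNP genes differed by less. HNRNPA1, a shuttling hnRNP known for silencing exons, had 916 CPM in shDEPDC1B and 1009 CPM in shNC, a log2 ratio of -0.14 [-0.17, -0.11], and -0.13 with 3 copies of it added. HNRNPH1 was at -0.43 [-0.49, -0.37], HNRNPR at -0.35 [-0.44, -0.25] (its deposited value, like that of PRPF8, is not a whole hundredth), HNRNPA3 at -0.17 [-0.21, -0.13] and HNRNPDL at -0.14 [-0.21, -0.07]. HNRNPC, which binds U-runs and keeps cryptic exons out, had 639 CPM in shDEPDC1B and 540.3 CPM in shNC, a log2 ratio of 0.24 [0.20, 0.28], HNRNPK, which binds C-runs, was at 0.18 [0.14, 0.22], HNRNPA0 at 0.21 [0.12, 0.29] and HNRNPU, a chromatin-bound hnRNP, at 0.04 [0.01, 0.08]. Intervals held equality for HNRNPAB (0.05), HNRNPD (-0.0047), HNRNPH3 (0.04), HNRNPL (0.04) and HNRNPM (-0.05). Among relatives, the log2 ratio of HNRNPA1 exceeded that of HNRNPA2B1 by 0.47 [0.42, 0.51] and that of HNRNPA3 did so by 0.44 [0.38, 0.49], while that of HNRNPF minus that of HNRNPH1 was -0.34 [-0.43, -0.25].

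Pairs of relatives or partners do not depend on the scaling, since both genes are read from the same libraries. Of 20 such pairs the interval of the difference excluded 0 for 19, and 7 differed by at least 1.5-fold. No share over other pairs of genes was computed, so these counts are not read as a trait of relatives or partners. For scale, the SD of the log2 ratio was 0.698 over all genes that reached 1000 counts. As differences of log2 ratios, first minus second, HNRNPH1 against HNRNPH2 was at 1.71 [1.48, 1.95], and at -0.25 with the read-through gene added to HNRNPH2. SF3B1 against U2AF2, which meet at the branch point, was at -1.16 [-1.24, -1.09]. SRSF2 against SRSF8 was at 0.68 [0.45, 0.90], and HNRNPUL1 against HNRNPUL2 at -0.66 [-0.79, -0.54]. SF3B4 against SF3B5 was at -0.63 [-0.79, -0.46], SRSF4 against SRSF6 at 0.40 [0.26, 0.54], and U2AF1 against U2AF2, which work as 1 dimer, at -0.31 [-0.44, -0.17]. After the fit on length and GC, 15 of the 20 pairs kept their sign. The 5 that changed sign were HNRNPAB minus HNRNPD, then at -0.41 and at 0.06 [-0.04, 0.15] before the fit, SNRPA minus SNRPB2 at -0.14, SRSF5 minus SRSF6 at -0.14, SRSF4 minus SRSF6 at -0.10 and SRSF3 minus SRSF7 at 0.07. Of the 7 pairs at 1.5-fold, 3 were below it after the fit, SF3B1 minus U2AF2 at -0.44, SF3B4 minus SF3B5 at -0.13 and SRSF2 minus SRSF8 at 0.50. The other 4 were still past it, with SRSF1 minus SRSF9 at -1.04, SF3B1 minus SF3B3 at -1.04, HNRNPUL1 minus HNRNPUL2 at -0.91 and HNRNPH1 minus HNRNPH2 at 1.74.

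**Figure D3:**
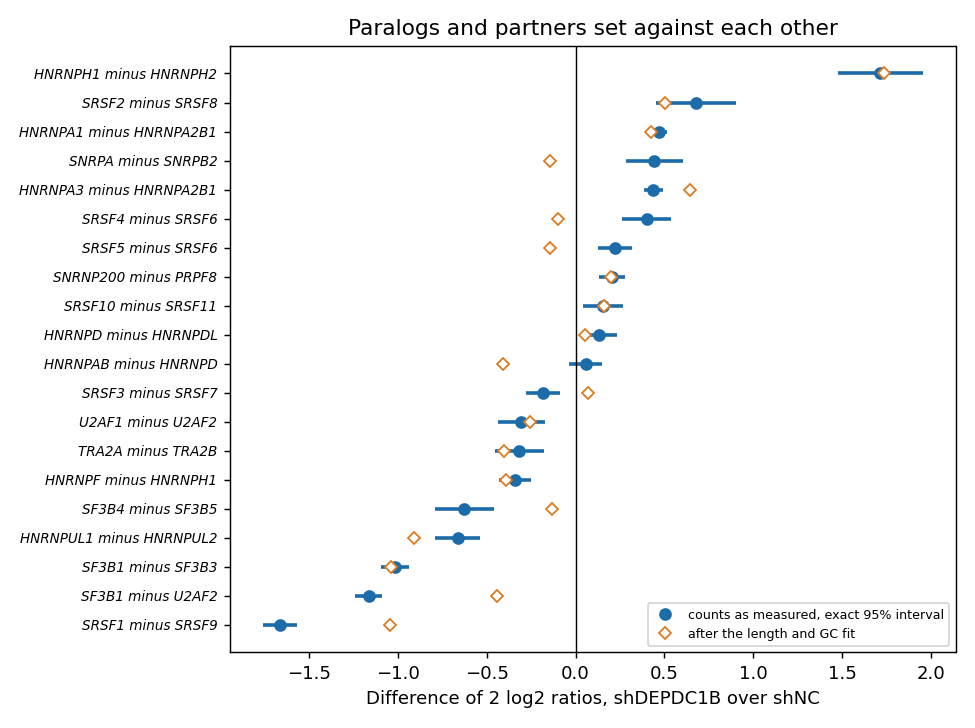
Difference of the log2 ratios of 20 pairs of genes, first minus second, with exact 95% intervals of counting error (blue) and after a fit on transcript length and GC content (orange). SRSF1 minus SRSF9 is at -1.66 and SF3B1 minus SF3B3 at -1.02, and 15 of the 20 keep their sign after the fit.

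Transcript length and GC content moved with the ratio, here as in the whole table. Across the 57 genes Spearman's rho of the log2 ratio was -0.53 with the length of the longest coding transcript and 0.43 with its GC content, against -0.51 and 0.38 across 13013 assessed genes with a length. These points share 1 pair of libraries and are no replicates. All 9 members under 1500 nucleotides had a ratio above 1, with a median log2 ratio of 0.76 against 0.55 for all genes of that length. Between 1500 and 3000 nucleotides, 15 of 21 did, with a median of 0.05, below the 0.30 of all genes of that length. From 3000 to 5000 nucleotides, 5 of 17 did, with a median of -0.14 against -0.06. Among the 10 members of 5000 nucleotides or more the median was 0.05, and that of all such genes -0.44. The longest transcript had a median of 1154 nucleotides in the 11 higher members and 3555 in the 7 lower ones.

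With a linear fit on length and GC over all genes subtracted, a different set was at least 1.5-fold away: 4 members higher (7.02%) against 12.3% of genes with a length, and 5 lower (8.77%) against 13.8%. None of the 11 higher members kept 1.5-fold, though all 11 remained above 0, among them SNRNP70 at 0.28, SNRPA1 at 0.42, SNRPB at 0.23, SRSF9 at 0.32 and SF3B5, with a transcript of 693 nucleotides, at 0.09. The median of the 12 snRNP and Sm genes was 0.25 after the fit. Of the 7 lower members 5 kept 1.5-fold: HNRNPH2 at -2.17, HNRNPUL1 at -1.26, SRSF8 at -0.91, HNRNPF at -0.82 and SRSF1 at -0.72. SF3B1, at 6526 nucleotides, was at -0.36 and HNRNPA2B1 at -0.35. The 4 that came past 1.5-fold have annotated transcripts of 4909 to 9720 nucleotides, with HNRNPA0 at 0.78, SNRPD1 at 0.73, SF3B3 at 0.68 and SNRNP200 at 0.59. The SNRPD1 value used an annotated transcript of 4909 nucleotides, far longer than those of its partners in the ring. The part of length and GC in the differences between classes was not tested beyond these fits.

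**Figure D4:**
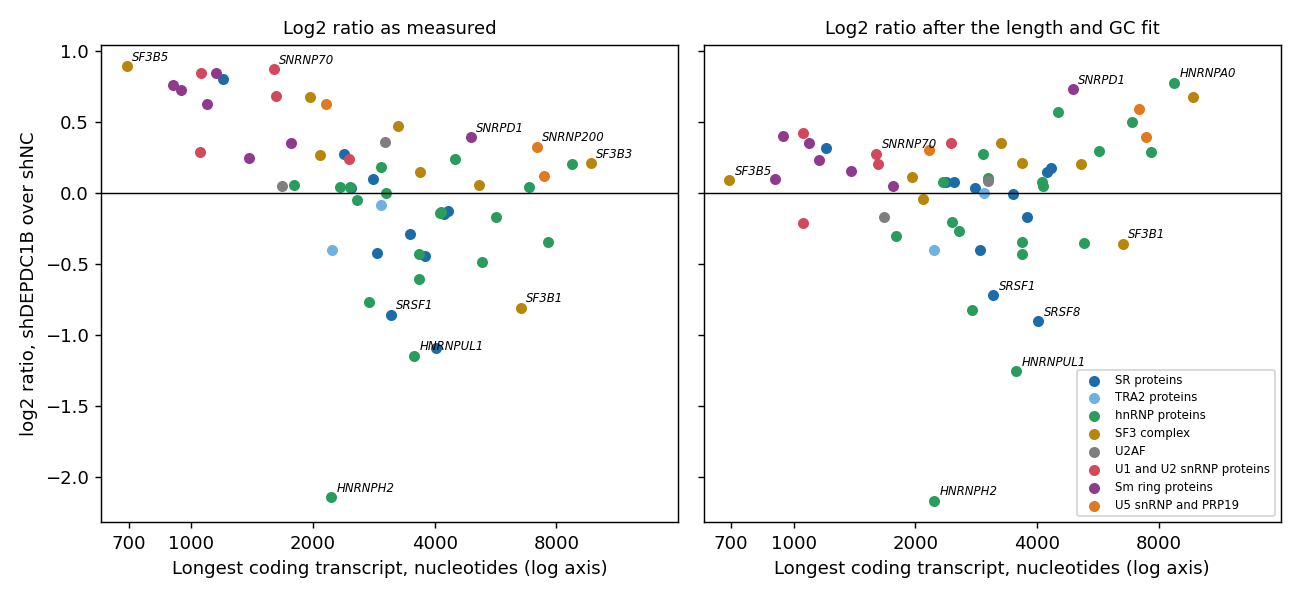
Log2 ratio of shDEPDC1B over shNC against the length of the longest coding transcript (log axis) for the 57 genes, as measured (left) and after a fit on length and GC (right). On the left all 9 genes under 1500 nucleotides lie above 0, on the right SNRPC (-0.21) lies below it, and HNRNPUL1 (-1.15 and -1.26) and SRSF1 (-0.86 and -0.72) stay low in both.

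Levels can be set side by side between genes as CPM per kilobase of the longest coding transcript, which is too low where a shorter form is made. On this scale SNRPB, at 307 in shDEPDC1B and 171 in shNC, was highest of the Sm ring genes and SNRPD1, at 13.8 in shDEPDC1B and 10.6 in shNC, lowest. SNRNP70 was at 212 in shDEPDC1B and 116 in shNC, SRSF9 at 169 in shDEPDC1B and 96.7 in shNC, and SRSF1 at 60.2 in shDEPDC1B and 109 in shNC. HNRNPA2B1 was at 162 in shDEPDC1B and 247 in shNC and HNRNPA1 at 222 in shDEPDC1B and 245 in shNC, so that HNRNPA1 lay above HNRNPA2B1 in shDEPDC1B and close to it in shNC. Of the 57 genes SNRPB was highest in shDEPDC1B and HNRNPA2B1 in shNC, and SRSF8 was lowest in both libraries, at 3.72 in shDEPDC1B and 7.94 in shNC.

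The rest of the splicing machinery was listed as 190 further genes, of which 186 were assessed. Over all of them 32 (17.2%) were past 1.5-fold upward in shDEPDC1B and 27 (14.5%) downward, against 19.2% and 19.6% of all genes. In the LSM ring, which holds U6 RNA, 5 of 7 lay past 1.5-fold upward and 0 downward, around a median of 0.89 (0.63 after the length and GC fit). LSM4 was at 0.95 [0.85, 1.06], LSM3 at 0.89 [0.74, 1.04] and LSM6 at 1.06 [0.74, 1.38]. In the U4/U6.U5 tri-snRNP list 4 of 16 lay past 1.5-fold upward and 2 downward, around a median of 0.40 (0.15 after the fit). PRPF38A, whose yeast relative is needed to activate the spliceosome, had 668 counts in shDEPDC1B and 228 in shNC, a log2 ratio of 1.63 [1.41, 1.85], PRPF6 was at 0.78 [0.69, 0.86] and PRPF4 at -0.78 [-0.93, -0.63]. In the minor spliceosome, which removes a rare class of introns, 3 of 9 lay past 1.5-fold upward and 0 downward, around a median of 0.43 (0.20 after the fit), with SNRNP25 at 1.10 [0.92, 1.29], ZMAT5 at 0.98 [0.68, 1.30] and ZCRB1 at 0.71 [0.60, 0.83]. Of PRP19 partners 5 of 15 lay past 1.5-fold upward and 0 downward, around a median of 0.29 (0.20 after the fit), with XAB2 at 0.92 [0.77, 1.07], BUD31 at 0.70 [0.60, 0.81] and ISY1 at 0.79 [0.57, 1.02].

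SR-related proteins, a list of proteins with RS domains outside the 11 SR genes above, had the lowest median of the 12 lists: 0 of 19 lay past 1.5-fold upward and 9 downward, around a median of -0.53 (-0.29 after the length and GC fit). Here and for the lists that follow, the shares of all genes were 19.2% upward and 19.6% downward. After the fit 4 of the 19 SR-related genes were past 1.5-fold downward, against 13.8% of genes with a length. SCAF4, which keeps RNA polymerase II from ending early, had 223 counts in shDEPDC1B and 698 in shNC, a log2 ratio of -1.57 [-1.79, -1.35]. SON, a scaffold of nuclear speckles, was at -1.31 [-1.38, -1.23] and NKTR at -1.33 [-1.45, -1.21]. The fit on length and GC put SCAF4 at -1.50, SON at -0.86 and NKTR at -0.84. Among U1-associated genes 0 of 10 lay past 1.5-fold upward and 3 downward, around a median of -0.38 (-0.06 after the fit), with LUC7L2, which bears on 5' splice site choice, at -1.24 [-1.38, -1.09] and TIA1 at -0.69 [-0.80, -0.59]; after the fit 1 of the 10 was past 1.5-fold downward. Of splicing kinases, which phosphorylate SR proteins or polymerase, 1 of 13 lay past 1.5-fold upward and 3 downward, around a median of -0.14 (0.13 after the fit), with PRPF4B at -0.98 [-1.09, -0.87], CDK12 at -0.77 [-0.87, -0.68] and CDK11B at 0.82 [0.69, 0.95]. Of U2-associated and branch point genes 3 of 14 lay past 1.5-fold upward and 1 downward, around a median of -0.13 (-0.05 after the fit), with SUGP1, a partner of SF3B1, at 1.07 [0.85, 1.29], PUF60 at 0.93 [0.84, 1.02] and the helicase DDX46 at -0.92.

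Counts of the last 4 lists stand against the same 19.2% upward and 19.6% downward of all genes. Of the exon junction complex and nonsense-mediated decay genes 1 of 13 lay past 1.5-fold upward and 4 downward, around a median of -0.14 (-0.02 after the fit), with the kinase SMG1 at -1.81 [-1.90, -1.72] and UPF2 at -0.86 [-0.99, -0.73]. The fit on length and GC put SMG1 at -1.02, and pseudogene copies of it in the genome make its count uncertain. Among genes that assemble snRNPs 3 of 16 lay past 1.5-fold upward and 3 downward, around a median of 0.12 (0.08 after the fit), with GEMIN7 at 1.01 [0.85, 1.18], the snRNP import adaptor SNUPN at 0.85 [0.68, 1.02] and the cap enzyme TGS1 at -0.76 [-0.92, -0.60]. Of spliceosomal helicases and second step factors 2 of 13 lay past 1.5-fold upward and 0 downward, around a median of -0.0043 (-0.01 after the fit), DDX39B at 0.70 [0.44, 0.96] and DHX16 at 0.59 [0.21, 0.97]. Of other regulators 5 of 41 lay past 1.5-fold upward and 2 downward, around a median of -0.08 (0.01 after the fit): ESRP2, an epithelial regulator, had 44 counts in shDEPDC1B and 1 in shNC, a log2 ratio of 5.54 [2.99, 10.88], RBFOX2 was at -1.54 [-1.71, -1.37] and SFPQ at -0.76 [-0.83, -0.70]. ESRP1, its relative, had 2 counts in shDEPDC1B and 3 in shNC, too few for a direction. The deposited values of PUF60, DDX39B, DHX16 and RBFOX2 are not whole hundredths, and their counting error is uncertain.

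**Figure D5:**
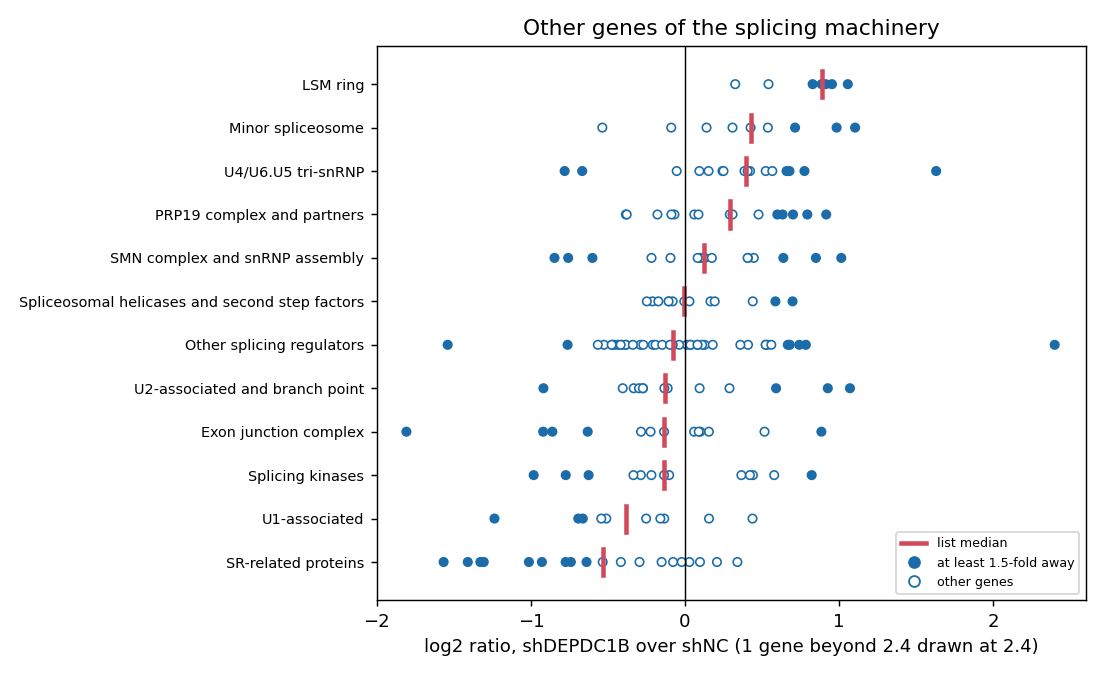
Log2 ratio of shDEPDC1B over shNC of 186 other splicing genes by list, with the list median as a red bar; filled points are at least 1.5-fold away with an interval that excludes equality. The LSM ring lies right of 0 as a whole (median 0.89) and SR-related proteins lie farthest left (median -0.53).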

How the data were processed

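The deposited table holds estimated counts (expected counts) per gene symbol for both libraries. Per the submitters' processing notes, Bowtie2, RSEM and hg38 were used, and no source used here gives their versions or the annotation. RSEM divides reads that fit several genes by a model. The deposited counts are not scaled for depth; they were rounded here, giving 18862371 counts in shDEPDC1B and 18647290 in shNC. Scaling used TMM factors of edgeR 4.0.16 in R 4.3.3. With 1 library per group no test of edgeR or DESeq2 1.42.0 was run. Intervals of ratios are exact 95% Clopper-Pearson bounds on what part of the counts fell in shDEPDC1B (SciPy 1.17.1), and pairs an exact conditional odds ratio interval. Each group is 1 library, so intervals cover counting error only. Reads carry no molecular identifiers, and duplicate reads were not accounted for in the intervals. Assessed genes reached 30 counts in one library or the other, and a call asked for a ratio of 1.5 and for equality outside the interval. Length and GC are of the longest coding transcript in GENCODE 29, known for all 57 members and 13013 of 13850 assessed genes. The members and lists were chosen with earlier results of these data known. All members are named, and of other lists up to 3 genes with interval bounds farthest from equality. Some genes that this rule names are not reported here. Alternatives changed the scaling, the count minimum, the threshold, the interval and the fits on length, GC and mean expression. The scaling, intervals and calls were run on simulated counts with 200 genes changed, drawn with counting error only. These held no length trend, no shared reads and no variation between libraries, so they check the code and not the results. Promoters come from RefSeq (GRCh38.p14).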

Additional observations from a re-analysis of the deposited data

How the results depend on the processing

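Of 57 genes, the 11 higher and 7 lower counts held within 1.5 times under most alternatives. With 2-fold as the line they were 0 and 3. The higher count was 4 after the linear fit on length and GC, 5 after a loess on length, and 4 with APPRIS transcript lengths, which were known for 36 members. By library totals it was 8 and by DESeq2 size factors 9. The median of all members was -0.043 with library totals, which moved the median of all genes to -0.06, against 0.04 by TMM, and 0.14 with APPRIS lengths. The median of the 12 snRNP and Sm genes was 0.25 after the linear fit, 0.20 after the loess on length and 0.25 with APPRIS lengths. That of SR, TRA2 and hnRNP genes was -0.14 by TMM and -0.23 with library totals. It was 0.016 after the linear fit, but -0.17 after the loess on length and -0.15 with APPRIS lengths. The share of lower among called genes was 50.4% by TMM and 61.2% by library totals over the whole table.

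No log2 ratio of the 18 members at least 1.5-fold away changed sign under any of the 15 alternatives that gave it a value. HNRNPH2 ranged from -2.40 to -0.18, the last with its read-through gene added. SRSF5 minus SRSF6 was -0.14 after the linear fit and -0.13 with APPRIS lengths, SRSF3 minus SRSF7 was 0.16 after the loess on length, and HNRNPH1 minus HNRNPH2 was -0.25 with read-through genes added. The median of SR proteins was 0.10 with APPRIS lengths. The APPRIS fit and the addition of read-through genes were chosen after seeing the data. The cause of these shifts was not tested. No paired analysis was possible because each group has 1 library, and for the same reason no replicate could be left out. Depth limits few members: the widest interval was that of HNRNPH2.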
